A study of Mus musculus with 63 samples.

Results

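The comparison described here is that of Chaserr-/- mouse embryonic fibroblasts (mEFs) with wild-type (WT) mEFs of the same pregnancy. It was chosen by the sample titles, Chaserr-/- replicates 1 to 3 against WT replicates 4 to 6, and takes 6 of the 63 samples of the series. In the series, mouse embryos, brains and mEFs with mutations of the lncRNA Chaserr or of its neighbour Chd2 were profiled by RNA-seq, with other assays beside it. The mEFs were primary cells grown from E13.5 embryos without the head and the liver, and each library is bulk RNA of such a culture, made with the SENSE mRNA-Seq kit of Lexogen. Chaserr-/- cells carry on both alleles a CRISPR-Cas9 deletion made with guides on either side of the Chaserr transcription start site, and WT cells carry neither this deletion nor a Chd2 mutation. The deletion exists in a pair of founder lines, and which of them gave these cells is not given in the sources used here. For the comparison with a double mutant, 3 Chaserr-/- Chd2m/m libraries and 3 WT libraries were added, where m is a frameshift allele of Chd2. The sample descriptions name these 6 as the double mutant set, but their titles give different crosses, Chd2+/m for the mutants and Chaserr+/- Chd2+/m for the WT, so that whether they are litter-matched is uncertain for every double mutant value.

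Chaserr is a polyadenylated lncRNA transcribed from the same strand as Chd2 and ending a short way upstream of it, and it is known as a repressor in cis of Chd2. CHD2 is a chromatin remodeller of the CHD family that uses ATP to move nucleosomes and is found at the promoters and bodies of transcribed genes. Loss of one copy of CHD2 causes a neurodevelopmental disorder with epilepsy in humans, so both too little and too much of the protein are of interest.

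The guide sequences are shown because they define the allele under study. They lie on chromosome 7 in mm9, with the 20 bases of the guide in lower case and the PAM, read from the genome, in capitals. The first pair was designed against the first intron of Chaserr and the second pair against the region upstream of its start.
sgRNA 1: cggtccgagccagcggggagAGG
sgRNA 2: gaggtgggaacccatctttgGGG
sgRNA 3: agtgaaactctgggtttgcgGGG
sgRNA 4: tgctgagaacatggaagcggTGG
Guide 1 matched chr7:80702699-80702718 and guide 2 matched chr7:80702568-80702587, both on the minus strand. Guide 3 matched chr7:80703696-80703715 on the plus strand, and guide 4 matched chr7:80703600-80703619 on the minus strand. The predicted cuts lie 15.9 to 17.1 kb upstream of the annotated start of Chd2 (chr7:80571577-80686632, minus strand), and the predicted deletions, from an intron cut to an upstream cut, span 901 to 1142 bases, with 1142 bases for guides 2 and 3 and 1032 bases for guides 2 and 4. None of the cuts lies within Chd2.

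Expected counts summed to between 9672637 and 11209060 per Chaserr-/- library and between 9836480 and 11061791 per WT library, so depth was similar in both groups. The 16 fibroblast markers examined, collagens and other matrix and mesenchymal genes, were detected in every library and summed to 20000, 20500 and 23800 CPM (counts scaled to library size, which corrects for depth but not for gene length) in Chaserr-/- and 25900, 26700 and 26000 CPM in WT, which fits the label. Sex differed within both groups. Y-linked genes were expressed in Chaserr-/- replicates 1 and 3 and in WT replicate 6, while Xist, which silences the inactive X chromosome, was expressed in the other 3 libraries.

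The GC content of the transcripts moved with the comparison. Genes were divided into 5 classes of equal size by GC content, from 33.4% to 44.2% in the lowest class to between 55.6% and 72.9% in the highest. The median log2 difference between Chaserr-/- and WT fell from 0.45 in the lowest class through 0.21, -0.02 and -0.25 to -0.45 in the highest. Across 13208 genes, which are not independent replicates, the Spearman correlation of the log2 fold change with GC content was -0.71, and that with transcript length was 0.08. Chaserr-/- replicate 1 had the steepest trend of the 6 libraries, from 0.57 to -0.53 relative to the mean of all libraries, and its deviations correlated with GC content at -0.77. Chaserr-/- replicates 2 and 3 gave -0.09 and -0.32, and the 3 WT libraries gave 0.44, 0.66 and 0.55. All Chaserr-/- libraries thus had the opposite sign of all WT libraries, so a GC effect of library preparation and a GC-dependent effect of the genotype cannot be told apart in these data. Each comparison was therefore also made after the trend with GC content and with length had been removed from each library, after which the correlations were -0.04 and 0.01. In what follows, "corrected" marks these values. The GC part of the correction could not be applied to 372 of the 13580 genes tested, which have no mm9 GC value, among them Chaserr. These genes were corrected for length alone.

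**Figure D1:**
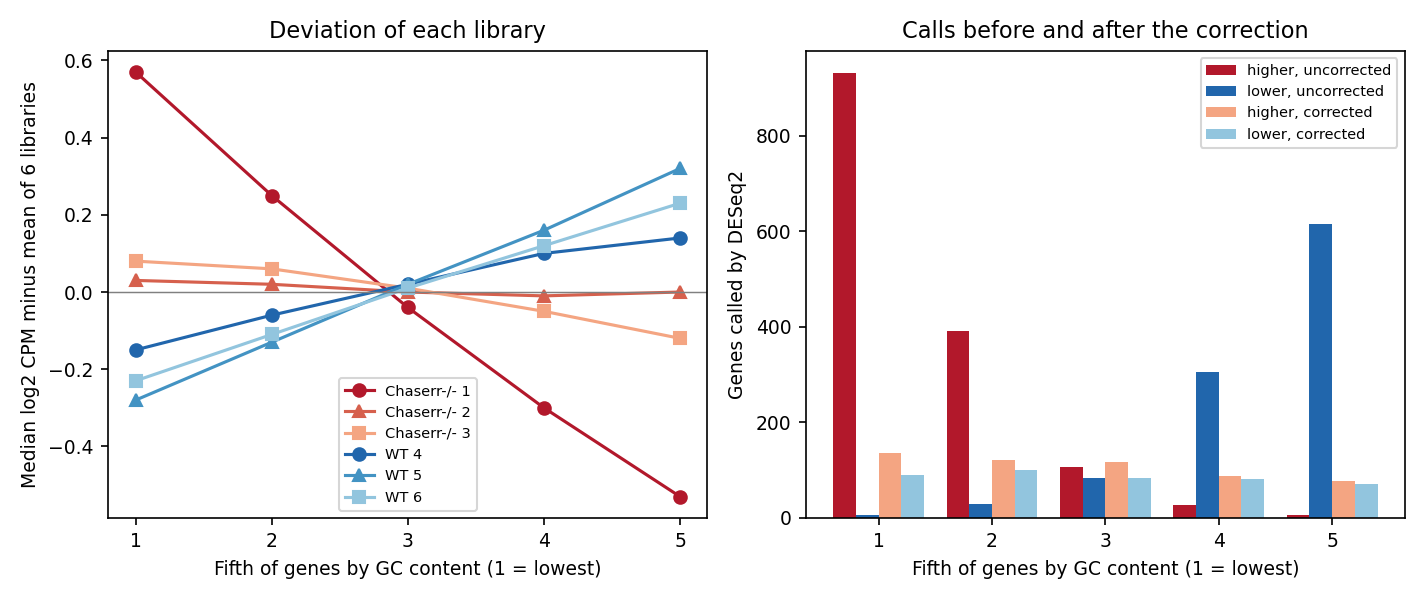
Left, the median log2 CPM of each library minus the mean of the 6 libraries (y axis) in the 5 GC classes (x axis, from low to high), where Chaserr-/- replicate 1 runs from 0.57 to -0.53 and the WT libraries slope the other way. Right, the number of genes called by DESeq2 in each class in either direction, without and with the correction, where the 931 higher genes of the lowest class and the 615 lower genes of the highest become 135 and 71.

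The deleted gene was examined first. Chaserr had 0 counts in each of the 3 Chaserr-/- libraries and 71, 50 and 41 counts in WT replicates 4, 5 and 6, which is at least 53.1-fold lower when 3 counts over the whole group are taken as the floor. The 3 Chaserr-/- libraries thus matched their label, and none of the WT libraries was Chaserr-/-. These counts do not tell WT from Chaserr+/-. Chd2 reached 93.7, 79.2 and 91.2 CPM in Chaserr-/- and 30, 31.7 and 35.1 CPM in WT, so that the groups were far apart. The corrected difference of Chd2 was 1.42 on the log2 scale (SE 0.104, 2.67-fold, adjusted p = 0.00154 by edgeR's quasi-likelihood test), and without the correction it was 1.45. Of the 8 other CHD remodellers tested, Chd1, the closest relative of Chd2, was the single one called by DESeq2 after the correction, a call lost without Chaserr-/- replicate 1 or 3 and without WT replicate 4 or 6. Chd1 stood at 107, 59.1 and 72.2 CPM in Chaserr-/- and 46.1, 51.9 and 41.6 CPM in WT, with a corrected log2 difference of 0.40 (adjusted p = 0.0488 by DESeq2), and was not called by edgeR (adjusted p = 0.103).

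How many genes were called depended on the test, and the edgeR counts include Chaserr and Chd2. With edgeR at an adjusted p under 0.05, 16 of 13580 genes were called (0.118%), 3 higher (0.0221%) and 13 lower (0.0957%) in Chaserr-/- mEFs. After the correction, edgeR called 65 genes (0.479%), 16 higher (0.118%) and 49 lower (0.361%), of which 14 were among the 16. DESeq2, which estimates the spread of each gene differently, called 2565 of 12147 genes with an adjusted p (21.1%), 1497 higher (12.3%) and 1068 lower (8.79%). After the correction DESeq2 called 1029 of 10703 genes (9.61%), 573 higher (5.35%) and 456 lower (4.26%). Of the 65 corrected edgeR calls, 62 (95.4%) were among these 1029, of which they were 6.03%, all in the same direction. The edgeR threshold fell in a dense range. Without the correction 1503 genes had an adjusted p under 0.06 and 4601 an unadjusted p under 0.05. With the correction these numbers were 374 and 3282. The p-values measure the spread between these libraries, which came from separate embryos of a genotype. Leaving out Chaserr-/- replicate 2 raised the corrected edgeR count to 891, leaving out Chaserr-/- replicate 1 lowered it to 19, and leaving out each of the others gave 4 to 17. Many calls of single genes were therefore not stable. Of 21 named genes called by edgeR only with the correction, 19 kept their call in 4 of the 11 alternatives tried. Genes that edgeR called with and without it, such as Chd2 and Dapk3, are not among the 21.

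Apart from Chd2, the genes that rose included laminin chains, which build basement membranes. Lama3, an alpha chain of epithelia, stood at 32.3, 21.5 and 26.9 CPM in Chaserr-/- and 11.8, 9.06 and 7.86 CPM in WT. Lamb3, a beta chain of epithelia, stood at 6.88, 7.48 and 6.74 CPM against 5.92, 4.17 and 2.95 CPM. For both chains no Chaserr-/- library was as low as any WT library, which held for 21.8% of all genes. Groups without overlap in either direction made up 43.2% of genes, and 30.1% after the correction. The corrected log2 difference was 1.68 for Lama3 (SE 0.213, adjusted p = 0.0208 by edgeR). Lamb3, at 1.10 (SE 0.276), was not called by edgeR (adjusted p = 0.0685) but was by DESeq2 (adjusted p = 0.0117). Of the 14 laminin and basement membrane genes tested, 4 had a positive log2 difference without the correction and 9 with it. DESeq2 called 2 higher and 2 lower without it, and 3 higher and 0 lower with it. The 14 genes had a corrected median of 0.05, or -0.33 with the 3 WT libraries of the Chaserr+/- pregnancy added.

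Of the 16 markers of epithelium and mesothelium tested, 14 had a positive corrected log2 difference and 13 an uncorrected one. Over all 13580 genes these counts were 6742 and 6580. A minority of the 16 were called. The 16 markers tested summed to 466, 414 and 435 CPM in Chaserr-/- and to 442, 334 and 233 CPM in WT, which overlapped. Their corrected median log2 difference was 0.67, or 1.42 with the 3 WT libraries of the Chaserr+/- pregnancy added. Epcam, an adhesion molecule of epithelia, stood at 31.8, 18.7 and 18.1 CPM against 14.9, 13 and 6.78 CPM. Epcam, Krt18, a keratin of simple epithelia, and Cldn4, a tight junction protein, were called higher by DESeq2 after the correction, with log2 differences of 1.19, 0.75 and 0.83, and Lrrn4, a marker of mesothelium, was called lower at -0.89. Without the correction DESeq2 called 1 marker higher and 2 lower, and with it no marker was called without Chaserr-/- replicate 1 or without WT replicate 6, whereas leaving out WT replicate 4 gave 7 higher and leaving out each of the others 1 to 4. The lower call of Lrrn4 was lost in each fit without a library that gave it an adjusted p. Among the genes with the largest DESeq2 rise was also Cldn6, another tight junction protein, at 24.7, 17.1 and 14.2 CPM in Chaserr-/- against 12, 9.68 and 5.31 CPM in WT. The part of such cells in the rise of the laminin genes was not tested. In bulk RNA, more cells of a type and more RNA per cell cannot be told apart.

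Other genes that rose had varied functions. Nanos1, which encodes an RNA-binding translational repressor, stood at 18.6, 11.7 and 15.4 CPM in Chaserr-/- and 4.01, 7.29 and 4.72 CPM in WT. Its corrected log2 difference of 1.54 (SE 0.251) passed edgeR's threshold (adjusted p = 0.0416). Snhg15, a lncRNA that hosts a snoRNA, stood at 18.4, 12.7 and 18.1 CPM against 6.01, 7.71 and 5.31 CPM (corrected log2 difference 1.33, adjusted p = 0.0437 by edgeR). In both genes the lowest Chaserr-/- library was above the highest WT library.

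Smaller rises called by corrected edgeR included Prdx5, a peroxiredoxin that removes peroxides, at 52.1, 49.2 and 60.2 CPM in Chaserr-/- and 38.2, 37.3 and 30.8 CPM in WT (0.92). Rab5a, a GTPase of early endosomes, stood at 221, 109 and 141 CPM against 64, 71 and 58.3 CPM (0.81), and Tbca, a tubulin folding cofactor, at 218, 102 and 123 CPM against 64.2, 50.3 and 54.6 CPM (0.80). Chaserr-/- replicate 1 was by far the highest library for both Rab5a and Tbca, whereas the 3 Chaserr-/- libraries were close together for Prdx5. The noncoding Igf2os, which lies antisense to the growth factor gene Igf2, was also called (0.83, adjusted p = 0.0193 by edgeR). The libraries are stranded, but the strand setting of the counting is not given in the sources used here, so reads of Igf2 in this value cannot be told apart.

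DESeq2 after the correction called further large rises that edgeR did not. Twist1, a bHLH transcription factor of mesenchyme and of the limb and skull, stood at 171, 116 and 111 CPM in Chaserr-/- and 66.3, 80.2 and 60.9 CPM in WT. With a GC content of 59.7%, its log2 difference by edgeR went from 0.94 to 1.47 with the correction (adjusted p = 0.0501 by edgeR and 0.00511 by DESeq2). Snrpe, a core protein of spliceosomal snRNPs, stood at 120, 48.4 and 56.3 CPM against 30.4, 22.7 and 26.3 CPM, and Tcfl5, a bHLH transcription factor, at 13.7, 4.66 and 8.58 CPM against 3.64, 3.23 and 2.95 CPM. Snrpe and Tcfl5 were highest in Chaserr-/- replicate 1 by a wide margin. The last gene called higher by edgeR without the correction was an extra transcript entry of Zfp131, whose reads can be shared with the main entry of that gene.

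**Figure D2:**
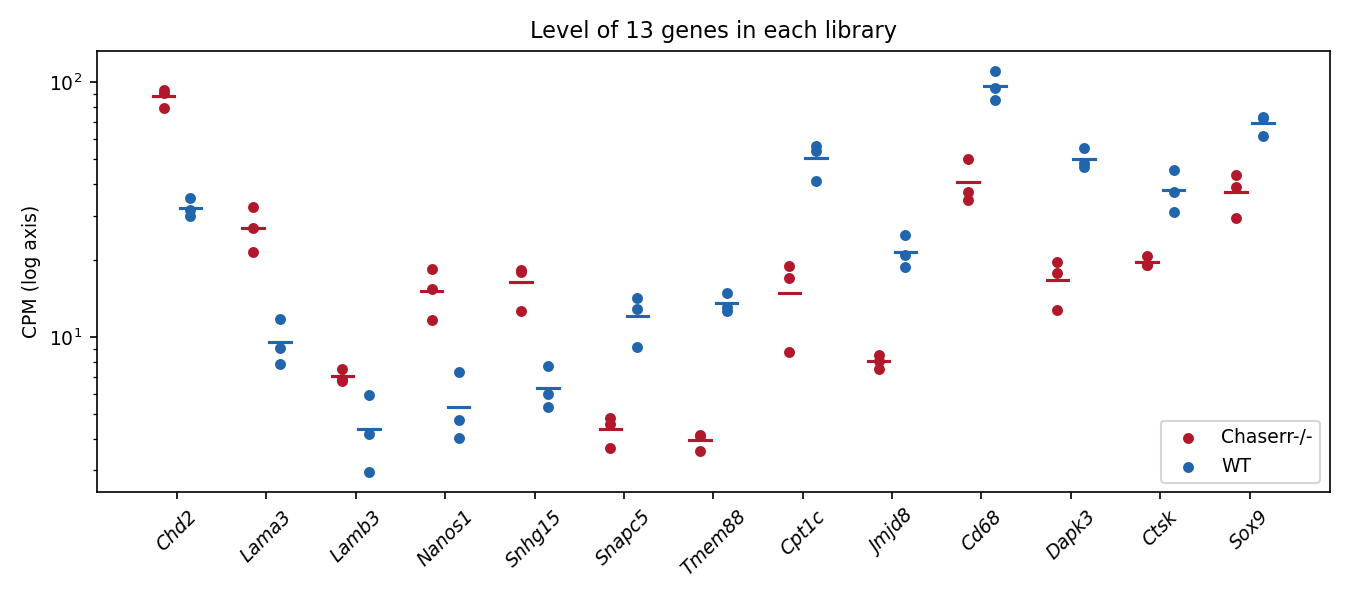
CPM of 13 genes on a log axis, with a point for each of the 3 Chaserr-/- and the 3 WT libraries and a line for the mean of each group. From Chd2 to Snhg15 all Chaserr-/- points lie above all WT points, and from Snapc5 to Sox9 all lie below.

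Most genes called by corrected edgeR were lower in Chaserr-/- mEFs, and 10 of these 49 genes start less than 2 kb downstream of another gene in the same orientation. Tmem88, an inhibitor of Wnt signalling at the membrane, stood at 4.11, 4.13 and 3.57 CPM in Chaserr-/- and 13.1, 12.7 and 14.9 CPM in WT, and begins 274 bases after the end of Kdm6b. Jmjd8, a JmjC-domain protein, stood at 7.5, 8.53 and 8.07 CPM against 21, 18.8 and 25.2 CPM and begins 137 bases after Wdr24. Both genes had little spread within either group. The corrected log2 difference was -1.48 for Tmem88 (SE 0.189) and -1.17 for Jmjd8 (SE 0.154), with an adjusted p of 0.0208 by edgeR in each case.

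Others of the 10 follow genes that are transcribed at very high levels. Snapc5, a subunit of the complex that activates snRNA genes, begins 735 bases after Rpl4, a ribosomal protein gene with a mean of 947 FPKM in WT. It stood at 4.83, 4.57 and 3.68 CPM in Chaserr-/- and 14.2, 9.16 and 12.9 CPM in WT (corrected log2 difference -1.73, SE 0.188, adjusted p = 0.0134 by edgeR). Cd68 begins 783 bases after the translation initiation factor gene Eif4a1 (837 FPKM), Dapk3, a kinase of cell death and contractility, 1411 bases after the elongation factor gene Eef2 (797 FPKM), and Cpt1c, a carnitine palmitoyltransferase of the brain, 1175 bases after Prmt1 (390 FPKM). Gpx1, a glutathione peroxidase, begins 1337 bases after the GTPase gene Rhoa (257 FPKM) and stood at 106, 191 and 158 CPM in Chaserr-/- against 297, 365 and 285 CPM in WT. Epn1, an endocytic adaptor, begins 303 bases after the splicing factor gene U2af2 (81.6 FPKM) and stood at 30.4, 46.7 and 46.6 CPM against 82.4, 96.9 and 84 CPM. Neither Gpx1 nor Epn1 showed overlap between the groups, and their corrected log2 differences were -0.78 and -0.56 (adjusted p = 0.0416 by edgeR for both).

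The high upstream level was not common to all 10. Kdm6b, upstream of Tmem88, had a mean of 13.3 FPKM in WT, and Wdr24, upstream of Jmjd8, 6.02 FPKM. Tpp1, a lysosomal peptidase, begins 765 bases after Dchs1 (14.9 FPKM), and Rbms1, an RNA-binding protein gene, 1172 bases after a predicted gene listed at 0 FPKM. Tpp1 stood at 146, 175 and 161 CPM in Chaserr-/- and 236, 220 and 244 CPM in WT, and Rbms1 at 349, 319 and 306 CPM against 418, 378 and 384 CPM. The upstream genes that could be tested had corrected log2 differences between -0.26 and 0.19. Levels of genes so close to one another can share reads at their borders, and the part of such reads was not tested. With the 3 WT libraries of the Chaserr+/- pregnancy added, 2 of the 10 genes were still called by corrected edgeR, Snapc5 and Dapk3 (adjusted p = 0.00825 for both), and all 10 had a negative log2 difference. Without Chaserr-/- replicate 1, 6 of the 10 were still called, and Gpx1, Tpp1, Epn1 and Rbms1 were not (adjusted p = 0.0725, 0.0575, 0.0733 and 0.0733).

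Of all 702 tested genes that start within 2 kb of an upstream end, corrected edgeR called 10 lower (1.42%) and 1, Prdx5, higher (0.142%). Of the 10465 genes that start over 10 kb from one, it called 25 lower (0.239%) and 12 higher, beside a background of 0.361% lower over all genes. By DESeq2 without the correction, 116 of the 702 were lower and 25 higher, and after it 38 were lower (5.41%) and 28 higher (3.99%). The far genes went from 698 lower and 1304 higher to 314 lower (3.00%) and 440 higher (4.20%). Where the upstream gene reached 10 FPKM, 24 of 273 genes were lower (8.79%) and 9 higher (3.30%) by DESeq2 after the correction. The corrected median log2 difference was -0.11 in these 273 genes, -0.04 in the 702 and 0.00 in the far genes, against -0.38, -0.27 and 0.02 without the correction. The median GC content was 55.4% in the 273 genes and 49.0% in the far genes, so the larger part of the shift of the median went with the GC trend.

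Genes of blood and muscle were among the largest decreases. Mpo, the peroxidase of neutrophil granules, stood at 1.54, 0.792 and 1.43 CPM in Chaserr-/- and 6.65, 9.16 and 14.9 CPM in WT, and Hba-a1, an alpha globin, at 10.1, 8 and 8.17 CPM against 41.2, 87.3 and 48.3 CPM. Ngp, another neutrophil granule protein, stood at 4.83, 1.58 and 2.14 CPM against 9.29, 12.2 and 22.1 CPM. The groups did not overlap for any of the 3 genes. The entry of Hba-a1 is one of several for near-identical alpha globin genes, among which reads can be split. Acta1, skeletal muscle actin, stood at 66, 95.1 and 86.1 CPM in Chaserr-/- and 205, 176 and 168 CPM in WT (corrected log2 difference -0.81, SE 0.107, adjusted p = 0.0208 by edgeR). Mybph, a myosin-binding protein, stood at 18.2, 21.3 and 16 CPM against 46.1, 39.6 and 35.2 CPM and was called by edgeR without the correction (adjusted p = 0.0439) but not with it (0.0595).

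The marker lists of these cell types moved with such genes. Macrophage markers summed to 597, 594 and 624 CPM in Chaserr-/- and 970, 782 and 861 CPM in WT, and 5 of 17 were lower by DESeq2 after the correction, namely Cd68, a lysosomal glycoprotein of macrophages, Laptm5, a lysosomal membrane protein of blood cells, Csf1r, the receptor of the macrophage growth factor, Fcer1g and C1qc. Laptm5 stood at 45.8, 61 and 57.3 CPM against 113, 100 and 102 CPM and was also called by edgeR with and without the correction. Skeletal muscle markers summed to 847, 779 and 730 CPM against 1850, 1340 and 1070 CPM, with 3 of 14 lower, namely Acta1, Tnni1 and Chrna1. Granulocyte markers summed to 25.4, 11 and 10.9 CPM against 45.8, 42.3 and 82.7 CPM, and erythroid markers to 104, 46.4 and 31.8 CPM against 136, 268 and 142 CPM. In each of these 4 lists the sums of the 2 genotypes did not overlap, and in none was a listed marker at 0 in all libraries. The same lower sums without overlap were seen for the fibroblast markers, given above. They were also seen for the chondrocyte markers, at 96.3 to 237 CPM in Chaserr-/- and 246 to 369 CPM in WT. Endothelial markers summed to between 120 and 161 CPM in Chaserr-/- and between 121 and 192 CPM in WT, which overlap. In WT mEFs of the Chaserr+/- pregnancy the macrophage markers summed to 210 to 273 CPM and the muscle markers to 383 to 408 CPM, lower than in all 6 libraries compared here. Granulocyte markers summed to 0.687 to 1.08 CPM and erythroid markers to 3.25 to 5.23 CPM there, so that the WT sets differed from one another more in these cell types than the genotypes did. With those WT libraries added, the corrected median log2 difference went from -0.32 to 0.28 for the macrophage list and from -0.38 to 0.20 for the muscle list. The part of these cells in the decreases was not tested.

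Single genes of cartilage and of the extracellular matrix were also lower, while most lists of such genes had few calls. After the correction DESeq2 called 1 of 31 osteoblast genes higher and 0 lower (2 and 1 at an unadjusted p under 0.05), and 2 of 41 matrix proteases and inhibitors higher and 1 lower, against 3 and 1, and 1 and 12, without it. The corrected median of the proteases and inhibitors was -0.16, or -0.36 with the 3 WT libraries of the Chaserr+/- pregnancy added. For the osteoblast list these medians were -0.10 and 0.09. Sox9, the transcription factor that commits cells to cartilage, stood at 29.4, 43.2 and 38.8 CPM in Chaserr-/- and 61.7, 72.7 and 73.1 CPM in WT (corrected log2 difference -0.89, SE 0.144, adjusted p = 0.0416 by edgeR). Acan, the cartilage proteoglycan, stood at 6.67, 16.8 and 18.3 CPM against 22.9, 38.5 and 31.4 CPM and was called by DESeq2 after the correction. Of the 11 chondrocyte markers tested, these 2 were called, and the markers summed to 96.3, 223 and 237 CPM in Chaserr-/- and 246, 350 and 369 CPM in WT, so that Chaserr-/- replicate 1 stood well below the rest. Podn, a small leucine-rich proteoglycan, stood at 13.7, 18.8 and 18 CPM against 32.9, 37.9 and 37 CPM and was called by edgeR with and without the correction. Fzd2, a Wnt receptor, stood at 106, 109 and 133 CPM against 226, 203 and 238 CPM and was called by edgeR without the correction (adjusted p = 0.0406) but not with it (0.0616).

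Signalling genes with lower levels included Egr1, Igfbp3 and Gdf10. Egr1, an immediate early transcription factor induced by growth factors, stood at 371, 648 and 518 CPM in Chaserr-/- and 972, 958 and 949 CPM in WT. Igfbp3, which binds IGFs in the extracellular space, stood at 295, 420 and 331 CPM against 596, 553 and 542 CPM. Gdf10, a ligand of the BMP family, stood at 26.9, 41.3 and 37.6 CPM against 58, 67.5 and 62 CPM. Each of the 3 had a lower level in every Chaserr-/- library, as had 21.4% of all genes. Gdf10 was called by corrected edgeR (log2 difference -0.57, adjusted p = 0.0496), and changed sign, to 0.13, when the WT libraries of the Chaserr+/- pregnancy were added, whereas Egr1 (-0.69) and Igfbp3 (-0.69) were called by corrected DESeq2 (adjusted p = 1.07e-05 and 1.05e-05) and were just above the threshold by edgeR (adjusted p = 0.0501 for both).

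Gene lists are described by DESeq2 calls with the correction, beside the background of 5.35% higher and 4.26% lower, and by the median log2 difference by edgeR, beside a median over all genes of -0.02 without and 0.00 with the correction. The background itself moved when 1 library was left out. Without Chaserr-/- replicates 1, 2 and 3 in turn it was 1.97%, 6.46% and 2.99% higher and 2.79%, 5.11% and 2.92% lower. Without WT replicates 4, 5 and 6 in turn it was 2.68%, 3.54% and 1.95% higher and 2.25%, 2.34% and 2.0% lower. None of the lists was tested as a set. Among 31 heat shock proteins and chaperones, 9 were higher and 1 lower after the correction, against 15 and 2 without it, and the median log2 difference went from 0.34 to 0.25. Hspd1, the mitochondrial chaperonin, stood at 312, 185 and 207 CPM in Chaserr-/- and 136, 148 and 125 CPM in WT (corrected log2 difference by DESeq2 0.72, adjusted p = 0.00099). Hsp90aa1, the inducible cytosolic HSP90, stood at 1070, 628 and 776 CPM against 523, 433 and 489 CPM, and Cct8, a subunit of the cytosolic chaperonin, at 337, 207 and 254 CPM against 140, 155 and 96.7 CPM. Bag3, a co-chaperone that hands clients to autophagy, was the member that fell, at 58.5, 67.4 and 71.4 CPM against 102, 135 and 99 CPM. When 1 library was left out at a time, between 6 and 12 members were called higher, fewest without WT replicate 6 and most without Chaserr-/- replicate 2.

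Among 27 hnRNP proteins, which bind nascent pre-mRNA, 9 were higher and 1 lower after the correction, against 16 and 1 without it, and the median went from 0.48 to 0.22. Of the 25 members with a GC value, to which both parts of the correction applied, 7 were higher. Hnrnpd stood at 154, 76.2 and 90 CPM in Chaserr-/- and 54.2, 50.3 and 45.4 CPM in WT, and Hnrnpu at 383, 242 and 265 CPM against 178, 173 and 163 CPM. Chaserr-/- replicate 1 was the highest library for both. The number called higher was 3 without WT replicate 5 or without WT replicate 6, 4 without WT replicate 4, 6 without Chaserr-/- replicate 1 or 3, and 9 without Chaserr-/- replicate 2.

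**Figure D3:**
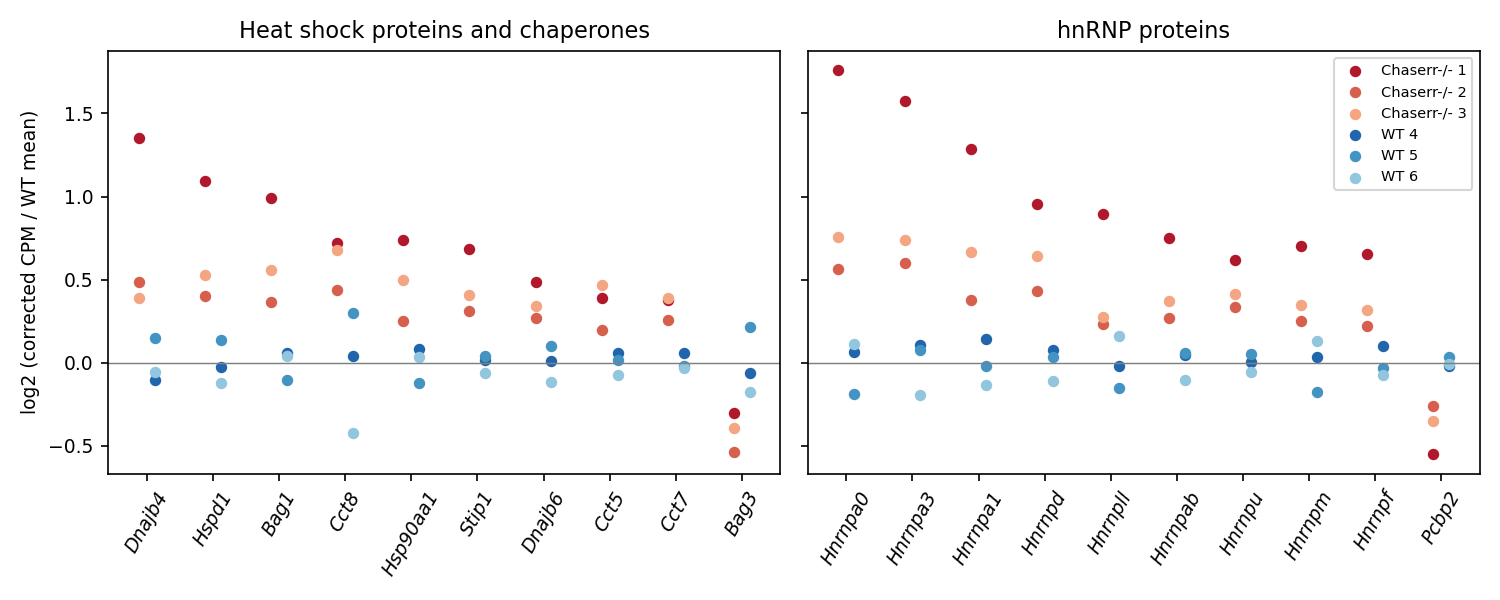
The log2 ratio of the corrected CPM of each library to the WT mean (y axis) for the heat shock and hnRNP genes called by corrected DESeq2 (x axis), with a point for each library. Of the 10 genes in either panel 9 lie above the WT mean in all Chaserr-/- libraries, and replicate 1 is the highest library for each of these 9 hnRNP genes.

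Some other lists of RNA and protein production had more higher than lower calls after the correction, and others did not. Of 48 ribosome biogenesis factors 8 were higher and 0 lower (19 and 1 at an unadjusted DESeq2 p under 0.05, and 18 and 1 by edgeR), of 53 translation initiation factors 9 were higher and 2 lower, and of 61 spliceosome proteins 9 were higher and 2 lower. Their medians were 0.21, 0.15 and 0.07. With 1 library left out these counts of higher genes ranged from 0 to 15, from 1 to 12 and from 2 to 10. They were highest without Chaserr-/- replicate 2, at 15, 12 and 10. Without Chaserr-/- replicate 1 they were 1, 3 and 2, and without Chaserr-/- replicate 3 they were 0, 3 and 4. Without WT replicates 4, 5 and 6 in turn, ribosome biogenesis had 0, 4 and 1, translation initiation 4, 5 and 1, and the spliceosome 5, 6 and 3. The share over all genes in each of these fits, given above, moved as well. Of 78 cytosolic ribosomal protein genes 6 were higher and 8 lower, and of 74 nuclear genes of oxidative phosphorylation 9 were higher and 7 lower. Of 21 genes of mRNA 3′ end formation 3 were higher and 3 lower (median -0.01), and of 36 RNA decay genes 1 was higher and 2 were lower (median 0.02). In these lists neither direction prevailed.

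Of 28 p53 targets 5 were higher and 0 lower after the correction, with a median of 0.08. Ccng1, a cyclin induced by p53, stood at 876, 419 and 561 CPM in Chaserr-/- and 229, 295 and 240 CPM in WT (corrected log2 difference by DESeq2 0.76, adjusted p = 7.13e-05). Cdkn1a, the CDK inhibitor p21, stood at 205, 258 and 312 CPM against 221, 304 and 275 CPM and was not called (adjusted p = 0.293 by DESeq2), and Mdm2, the ubiquitin ligase of p53, was not called either (0.15). Bax, which permeabilizes mitochondria in apoptosis, was called higher (adjusted p = 0.00273 by corrected DESeq2) although its CPM, at 62.1, 87.4 and 88.8 in Chaserr-/- and 63.6, 92.8 and 73.1 in WT, overlapped before the correction. At an unadjusted DESeq2 p under 0.05, 7 p53 targets were higher and 0 lower, and corrected edgeR had 7 and 1 at that level.

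Of 29 genes of the amino acid and ER stress response 5 were higher and 0 lower by corrected DESeq2, and at an unadjusted p under 0.05 9 were higher and 1 lower. The 5 genes, Hspa5, Hsp90b1, Dnajb11, Manf and Creld2, encode chaperones and folding factors of the ER. Hspa5, the ER chaperone BiP, stood at 1620, 1220 and 1440 CPM in Chaserr-/- and 1060, 893 and 1010 CPM in WT. Manf, an ER-resident factor that is secreted under stress, stood at 345, 266 and 284 CPM against 218, 207 and 215 CPM. The groups did not overlap in either gene, and the corrected log2 differences by edgeR were 0.31 and 0.46, neither of which passed its threshold (adjusted p = 0.107 and 0.0611). With 1 library left out, 1 to 6 p53 targets were higher, with the fewest without Chaserr-/- replicate 3, and 2 to 6 stress response genes. When the 3 WT libraries of the Chaserr+/- pregnancy were added, the corrected medians became -0.25 for the p53 targets and -0.03 for the stress response genes.

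Some lists changed direction or lost their calls with the correction. Of 23 SR splicing factors, whose median GC content is 43.0%, DESeq2 called 8 higher and 2 lower without the correction and 1 higher and 5 lower with it, and the median went from 0.21 to -0.10. Tra2a, a splicing activator related to SR proteins, was the one higher, at 121, 66.9 and 78.6 CPM in Chaserr-/- and 44.4, 44.7 and 38.1 CPM in WT, while Srsf6 stood at 301, 297 and 293 CPM against 330, 332 and 331 CPM. Of 347 zinc finger genes with Zfp symbols, 59 were higher and 22 lower without it, and 7 higher and 5 lower with it. Of 50 G2 and M phase genes 19 were higher and 4 lower without it, and 6 higher and 3 lower with it, among the latter Cks2 and Ccnb2, regulators of CDK1 that corrected edgeR also called lower (log2 differences -0.66 and -0.49, adjusted p = 0.0272 and 0.0416). Fibrillar and other collagens, 27 genes, had 2 higher and 2 lower without the correction and 0 in either direction with it, when edgeR also called 0, with 8 higher and 1 lower at an unadjusted DESeq2 p under 0.05 and 6 and 1 by edgeR, and their median went from -0.20 to 0.12. The level of these lists in Chaserr-/- mEFs therefore cannot be separated from the GC trend.

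Other lists lost most of their lower calls with the correction, among them lists with a median GC content close to the 49.9% of all genes (51.7% for lysosomal proteins and 50.7% for chromatin coactivators and remodellers) as well as above it (55.7% for elastic fibre genes). Of 23 elastic fibre genes 11 were lower without the correction and 2 with it, and the median went from -0.59 to -0.14. The 2 genes were Mfap2 and Mfap4, microfibril-associated glycoproteins, and Mfap2 stood at 124, 205 and 163 CPM in Chaserr-/- and 281, 295 and 344 CPM in WT. Of 65 lysosomal protein genes 18 were lower and 5 higher without it, and 5 lower and 1 higher with it. The lysosomal genes called lower by corrected edgeR were Tpp1, Ctsk, a collagen-degrading protease of osteoclasts, and Ids, which degrades heparan and dermatan sulfate. Of 55 chromatin coactivators and remodellers 19 were lower without it and 5 with it, beside 3 higher. The higher genes were Eed and Suz12, core subunits of the Polycomb complex PRC2, and the histone deacetylase gene Hdac2. Suz12 stood at 92, 50.6 and 57.4 CPM in Chaserr-/- and 36.8, 30.9 and 31.3 CPM in WT, and Eed at 63.2, 43 and 46.8 CPM against 33.3, 29.8 and 31.3 CPM. Those lower included Crebbp, a histone acetyltransferase, Smarcb1, a SWI/SNF subunit, Srcap, a remodeller that deposits H2A.Z, and the joined entry of Hdac5. Srcap stood at 102, 139 and 127 CPM against 178, 204 and 186 CPM. A list of 23 genes whose loss shortens the long bones of mice, which the study chose on these samples so that its direction is not independent evidence, had 19 lower without the correction and 5 with it, and the median went from -0.64 to -0.26. The 5 were Acan, Csf1r, Fos, Creb3l2 and Sfrp2, a secreted modulator of Wnt signalling. Sfrp2 stood at 295, 353 and 325 CPM in Chaserr-/- and 549, 491 and 466 CPM in WT. The corrected medians were also taken with the 3 WT libraries of the Chaserr+/- pregnancy added. They went from -0.14 to -0.54 for elastic fibre genes and from -0.15 to -0.44 for lysosomal proteins. For the chromatin list the change was from -0.12 to -0.05, and for the long bone list from -0.26 to -0.17.

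Imprinted genes were 1 of the lists that leaned lower after the correction, with 7 of 36 lower and 2 higher, against 6 and 3 without it. Of the 31 with a GC value 5 were lower and 1 higher. Dlk1, a membrane protein of the Notch ligand family expressed from the paternal allele, stood at 839, 1660 and 1440 CPM in Chaserr-/- and 2560, 2500 and 2010 CPM in WT (corrected log2 difference by DESeq2 -0.57, adjusted p = 0.00526). Peg10, a retrotransposon-derived gene of the placenta, stood at 377, 383 and 339 CPM against 482, 472 and 474 CPM (-0.45, adjusted p = 0.000166). The groups did not overlap in either gene. The count of lower imprinted genes was 2 without WT replicate 4, 3 without WT replicate 6, 4 without Chaserr-/- replicate 3, 5 without Chaserr-/- replicate 1 or WT replicate 5, and 10 without Chaserr-/- replicate 2, and with the added WT libraries the corrected median went from -0.14 to 0.01.

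**Figure D4:**
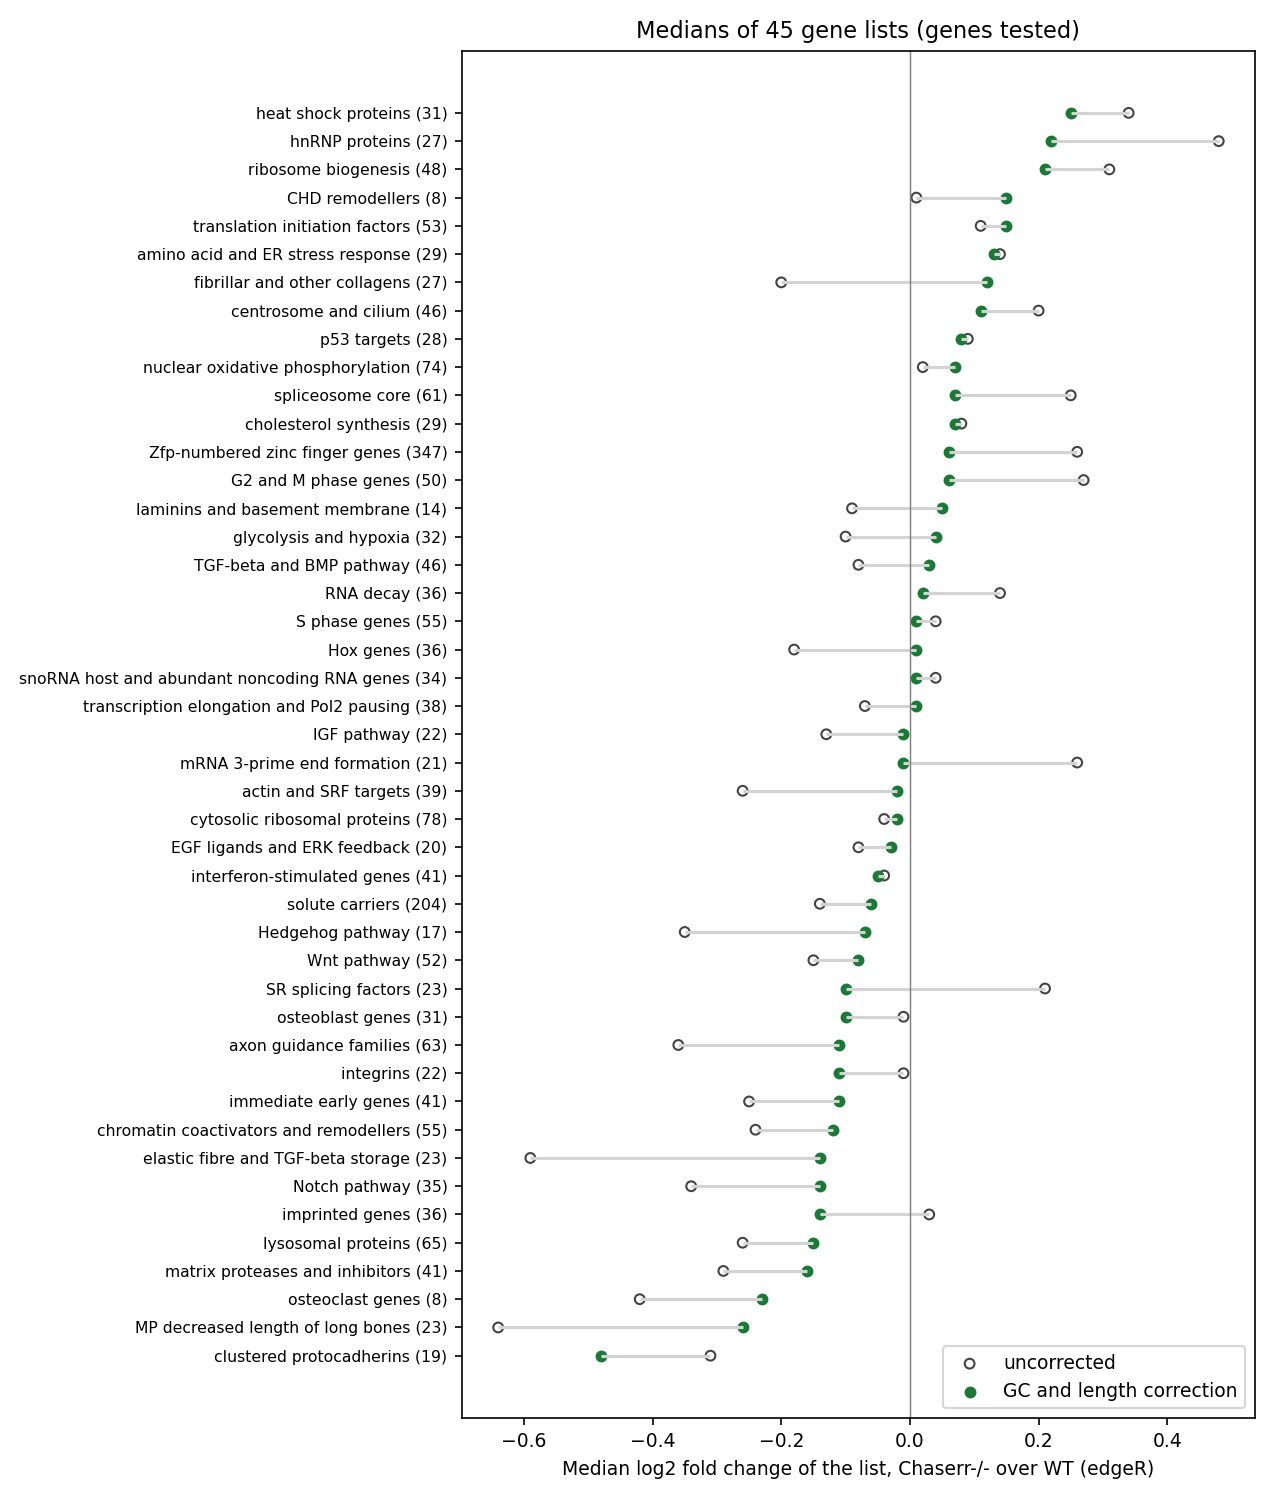
Median log2 difference (x axis) of 45 gene lists, with the number of genes tested beside each name, without (open circles) and with (filled circles) the GC and length correction. The medians of the hnRNP and heat shock lists go from 0.48 and 0.34 to 0.22 and 0.25, and that of the elastic fibre list from -0.59 to -0.14.

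Calls by GC class showed the same shift. DESeq2 called 931 genes higher and 6 lower in the lowest GC class and 6 higher and 615 lower in the highest, against 135 and 89, and 77 and 71, after the correction. By length, the shortest of 5 classes had 266 higher and 231 lower and the longest 318 higher and 196 lower, and after the correction 154 and 130 against 96 and 76. Of 247 lncRNA genes DESeq2 called 10 higher and 3 lower without and 5 and 5 with the correction.

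Whether Chaserr-/- mEFs differed from WT in the same way when Chd2 was mutated too was asked with the double mutant libraries, in 1 fit of 12 libraries on 14273 genes. The difference between the effects passed edgeR's threshold for 16 genes (0.112%), and for 5 genes with the correction (0.035%). Acta1, at 64.7, 93.4 and 84.6 CPM in Chaserr-/- and 202, 173 and 165 CPM in its WT, stood at 70.9, 86.3 and 53.1 CPM in Chaserr-/- Chd2m/m and 40.5, 49.8 and 37.1 CPM in the WT of that set. Tnni1, slow skeletal troponin I, stood at 33.9, 42.6 and 38.5 CPM against 78.2, 68.5 and 65.5 CPM, and at 43.1, 44 and 35.4 CPM against 26.1, 24.8 and 26.5 CPM in the double mutant set. In both genes the mutant libraries of the 2 sets overlapped and the WT libraries were far apart. The difference between the effects was -1.87 for Acta1 and -1.54 for Tnni1 on the log2 scale, and with the correction -1.54 and -1.27 (adjusted p = 0.0204 and 0.0106 by edgeR). Sets of embryos and genotypes changed together here and cannot be told apart.

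The genes that lie close downstream of another gene differed among themselves in the double mutant. Effects in that set, by the 12-library fit with the correction, were -0.74 for Snapc5 and -0.62 for Cd68, and -0.10 for Jmjd8, -0.04 for Tmem88, -0.06 for Dapk3, 0.02 for Gpx1 and 0.17 for Cpt1c. The corresponding effects in Chaserr-/- mEFs were -1.72, -1.13, -1.16, -1.47, -1.04, -0.77 and -1.38. The difference passed edgeR's threshold for Tmem88 (adjusted p = 0.0185), Dapk3 (0.0139) and Cpt1c (0.0325) without the correction, and with it for Cpt1c alone of the 10 genes (0.0194). Of the 49 genes called lower by corrected edgeR, 38 also had a negative effect in the double mutant set. Chaserr, deleted in both sets, is among these 38. The median effect of the 49, without the correction, was -0.82 in Chaserr-/- and -0.13 in the double mutant. The share of negative effects over all genes was not counted for the double mutant set. With the correction 7 of the 49 were called there, of which Ccnb2, Chaserr, Ctsk, Podn and Snapc5 were lower, and Tnni1 and Arpp21 were higher. Of the 16 genes called higher, 10 had a positive effect there with the correction. The median effect of the 16, without the correction, was 1.28 in Chaserr-/- and 0.04 in the double mutant. Of the 3 called there with the correction, Chd2 and Anxa8 were higher and Rtp4 was lower.

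**Figure D5:**
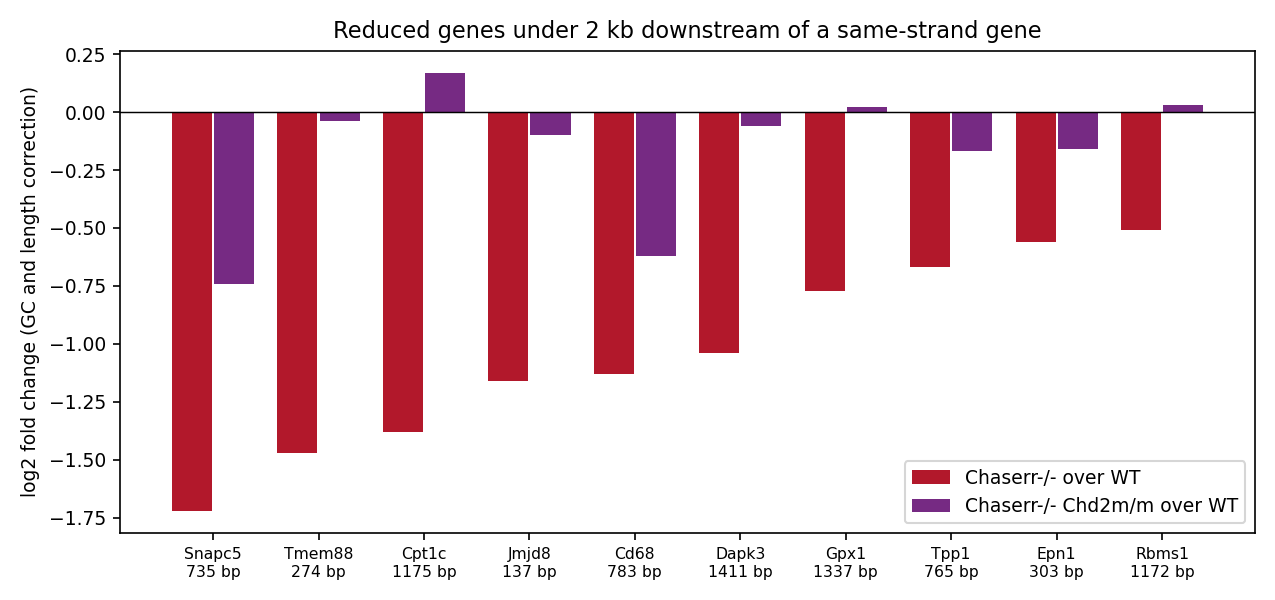
Log2 difference from WT with the GC and length correction, in the fit of 12 libraries and drawn without error bars, in Chaserr-/- mEFs and in Chaserr-/- Chd2m/m mEFs, for the 10 lower genes that start under 2 kb after a same-strand gene, with the distance in bases. All 10 are negative in Chaserr-/-, from -1.72 to -0.51, and in the double mutant only Snapc5 and Cd68 lie below -0.17.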

How the data were processed

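Bulk RNA-seq of 3 Chaserr-/- and 3 WT mEF cultures was analysed, with 3 Chaserr-/- Chd2m/m cultures and their 3 WT, and 3 WT cultures of a Chaserr+/- pregnancy, for comparison. The authors made an expected count, an FPKM and a TPM for each of 24990 entries with RSEM on an edited RefSeq annotation, and deposited them without normalization between libraries. The version of RSEM is not given in the sources used here. Expected counts were rounded. For edgeR 4.0.16 (quasi-likelihood) they were filtered with filterByExpr and scaled by TMM. For DESeq2 1.42.0 all entries with any count were kept, with its own size factors and independent filtering at alpha 0.1. Both were run in R 4.3.3, with Benjamini-Hochberg adjustment and a threshold of 0.05. The SE of an edgeR log2 difference was derived as its absolute value divided by the square root of the quasi-likelihood F statistic. CPM are scaled by TMM. For the corrected fits, a lowess trend (span 0.3) of each library's log2 deviation (prior count 2) on GC content and then on length entered as an offset. GC content and distances came from mm9 gene models. Length was the deposited length of each entry, averaged over the Chaserr-/- and WT libraries compared. Entries in which several genes are joined kept no GC value. Paralogs and joined entries can share reads. With 3 libraries against 3, an exact permutation test of 1 value cannot go below 0.1, so single values rest on the fits across genes. The scripts were checked on simulated data.

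Genes named are those the study discusses, all genes called by edgeR, up to 10 with the largest change in either direction called by corrected edgeR or corrected DESeq2 (no overlap between groups, FPKM averaging 1 or more where higher), up to 4 members of each list by edgeR p, and called markers, of which the text describes a part. Gpx1, Epn1, Rbms1, Cdkn1a, Anxa8, Rtp4 and Arpp21 were singled out after their values were seen. The members and lists were chosen with earlier results of these data known. Settings varied were the test, normalization, filter, correction, control libraries and single libraries. Some genes that met these rules are not reported here.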

Additional observations from a re-analysis of the deposited data

Results flagged for a closer look

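The effect of Chaserr loss differed between the Chaserr-/- and the Chaserr-/- Chd2m/m comparison for 16 genes, by edgeR's test of the difference between the 2 effects at an adjusted p under 0.05. Values are the log2 effect in Chaserr-/- mEFs minus that in the double mutant. Muscle genes made up much of the negative side, with Synpo2l, a Z-disc protein, at -2.0, Cdh15, the cadherin of myoblasts, at -1.93, Acta1 at -1.87, Mybph at -1.64, Tnni1 at -1.54 and Actn2, sarcomeric actinin, at -1.45. The genes that lie close downstream of another gene among the 16 were Cpt1c at -1.94, Tmem88 at -1.75 and Dapk3 at -1.54.

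Also negative were Dusp5, a nuclear phosphatase of ERK, at -1.35, Arpp21 at -1.34 and Ccn2, a matricellular protein induced by YAP and TGF-beta, at -1.29. The positive differences were 0.96 for Hnrnph2, 1.36 for Tmem87a, 1.38 for Zfp945 and 2.46 for Samd9l, an interferon-induced gene. The 2 effects had opposite signs in 14 of the 16 genes, all but Tmem88 and Dapk3. Examples were Acta1, at -1.14 in Chaserr-/- and 0.73 in the double mutant, and Samd9l, at 1.06 and -1.40. Choosing genes by a large difference favours opposite signs. Some double mutant effects were small, as in Cpt1c (0.2) and Hnrnph2 (-0.18). Once GC content and length were corrected for, the difference passed for Arpp21, Cpt1c, Acta1, Tnni1 and Actn2.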

How the results depend on the processing

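No paired analysis was possible because the groups share no replicate number, with 1 to 3 in Chaserr-/- and 4 to 6 in WT. The 16 edgeR calls became 2565 with DESeq2, 1407 without a filter, 1383 with at least 10 counts in every library, 65 with the GC and length correction and 3 with the 3 WT libraries of the Chaserr+/- pregnancy added, and ranged from 2 to 2827 with 1 library left out. The 65 corrected edgeR calls became 211 with the correction for GC content alone, 15 for length alone, 1029 with DESeq2 and 5 with the added WT libraries, an alternative chosen after the data were seen, and ranged from 4 to 891 with 1 library left out. The DESeq2 calls ranged from 747 to 3234 without the correction and from 391 to 1352 with it. Without Chaserr-/- replicate 1 the 4 counts were 1015, 19, 1449 and 402, and without Chaserr-/- replicate 2 they were 2827, 891, 3234 and 1352. The cause of these changes was not tested.

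The 16 differences from the double mutant became 1513 with DESeq2, 26 with at least 10 counts in every library and 5 with the correction, and ranged from 0 to 1764 with 1 library left out. The 0 of edgeR came without Chaserr-/- Chd2m/m replicate 1, where 2763 genes had an unadjusted p under 0.05. The log2 difference of Chd2 was 1.51 on the TPM scale and lay between 1.40 and 1.52 with 1 library left out, the latter chosen after the data were seen. Of the genes named, Gdf10 and Anxa8 changed sign, to 0.13 and -0.32, when the WT libraries of the Chaserr+/- pregnancy were added with the correction. For 21 named genes called by edgeR only with the correction, there were 231 combinations of a gene and an alternative. Of these, 91 kept direction and call, 138 lost the call and 2 changed sign. Among these 21 genes, 19, such as Nanos1, Sox9 and Gpx1, kept the call in 4 of 11 alternatives, Igf2os in 6 and Snapc5 in 9. Another 16 genes, among them Chd2 and Dapk3, were followed in the uncorrected edgeR fit. Of their 206 combinations 139 kept direction and call, 61 lost the call and 6, all of Ctsk, gained it. List counts with a library left out were also chosen after the data were seen. Low counts limit the precision of genes such as Chaserr, Mpo, Ngp, Tmem88 and Snapc5.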

Other observations

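The deposited value of Chaserr itself differed among the WT mEFs of the series. Its mean was 5.14 CPM in the 3 WT libraries compared here, 9.41 CPM in the 3 WT libraries of the Chaserr+/- pregnancy and 37.6 CPM in the 3 WT libraries of the double mutant set, a ratio of 7.31 between the last set and the first. The libraries stood at 6.36, 5.11 and 3.96 CPM in the first set (71, 50 and 41 counts). They stood at 9.77, 9.85 and 8.6 CPM in the second (128, 109 and 102 counts). The last set had 41.3, 37.8 and 33.7 CPM (652, 551 and 548 counts). The sets did not overlap, although the libraries of the first set differed among themselves. Chd2 had means of 31.7, 39.4 and 37.3 CPM in the same sets, a ratio of 1.18. The files give Chaserr the same length, 873 bases, in all of these sets, and the labels name the same library kit. No test was made between the sets, and what sets them apart was not tested.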
